A study of Mus musculus with 4 samples.

Results

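The cells described here were sorted as haematopoietic stem cells (HSC) and were not cycling and low in immediate early transcripts by their own counts; 10 of them carried transcripts of other blood lineages. Of 188 cells kept from 384 barcodes, 58 were chosen by this rule on their own transcripts. Cells with at least 1000 detected genes were kept. From these, 14 cells with 0.25% or more of their unique molecular identifiers (UMIs, counted cDNA tags) in 7 B-lineage genes were dropped. So was the most cycling part of the others, 58 cells, by the share of UMIs in 11 cell cycle genes. The 116 resting cells left were split at the pooled median share of 6 immediate early genes (Fos, Jun, Junb, Dusp1, Egr1 and Ier2). The lower 58 are called members. Both shares were used to choose the cells, so the levels of these 24 genes, and the levels of any gene in members against the other resting cells, are descriptions with no test. Tests are of the genotype difference in members, and of whether it departed from that in the other resting cells.

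The cells came from HSC sorted from mouse bone marrow, in 2 libraries of the genotype Mat KO and 2 of wild type (WT). The study's title concerns small nucleolar RNAs (snoRNAs) of the imprinted Dlk1-Gtl2 locus, long-term HSC self-renewal and modification of ribosomal RNA. The labels name neither the deleted part of the locus, the sorting markers, the age of the mice, the number of animals, nor any treatment, and they give the same tissue for all libraries. Single cells were picked by mouth pipette and read with a modified STRT-seq protocol, which tags the 3' ends of polyadenylated RNA.

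Most long-term HSC in adult marrow are quiescent, held outside the cell cycle by inhibitors of cyclin-dependent kinases, by transcription factors of the FoxO family and by signals such as TGF-beta. Immediate early genes are transcribed within minutes of a stimulus without new protein synthesis. They encode the AP-1 subunits Fos and Jun, the zinc finger factor Egr1 and feedback regulators such as the phosphatase Dusp1. They also respond to the handling of cells, so their level in sorted cells can reflect the state in the animal or the preparation, which these data cannot tell apart.

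Mat KO replicates 1 and 2 gave 13 and 29 members and WT replicates 1 and 2 gave 11 and 5. Their summed UMIs were 427411 and 995133 in Mat KO versus 545427 and 167569 in WT, so 3 UMIs correspond to 3.02 to 17.9 CPM (counts scaled to the same library total). The WT replicate 2 sum thus rests on 5 cells. Median depth per cell was 29403 UMIs in members and 31141 in the 58 resting cells with high immediate early genes (high cells), against 51668 in the 58 cycling cells. Members had a median of 3042 detected genes and high cells 3405.5, and gene UMIs per spike-in UMI had a median of 0.679 in both. The libraries used the same 48 cell barcodes, and 44 barcodes held a kept cell in all 4 libraries. A total of 16 of the 42 barcodes with a member held members in 2 libraries. Of the members, 25 had both Xist and Y-linked UMIs, with a median of 1 UMI of the rarer kind against 15 of the commoner. Whether that reflects doublets or free RNA was not tested.

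**Figure D1:**
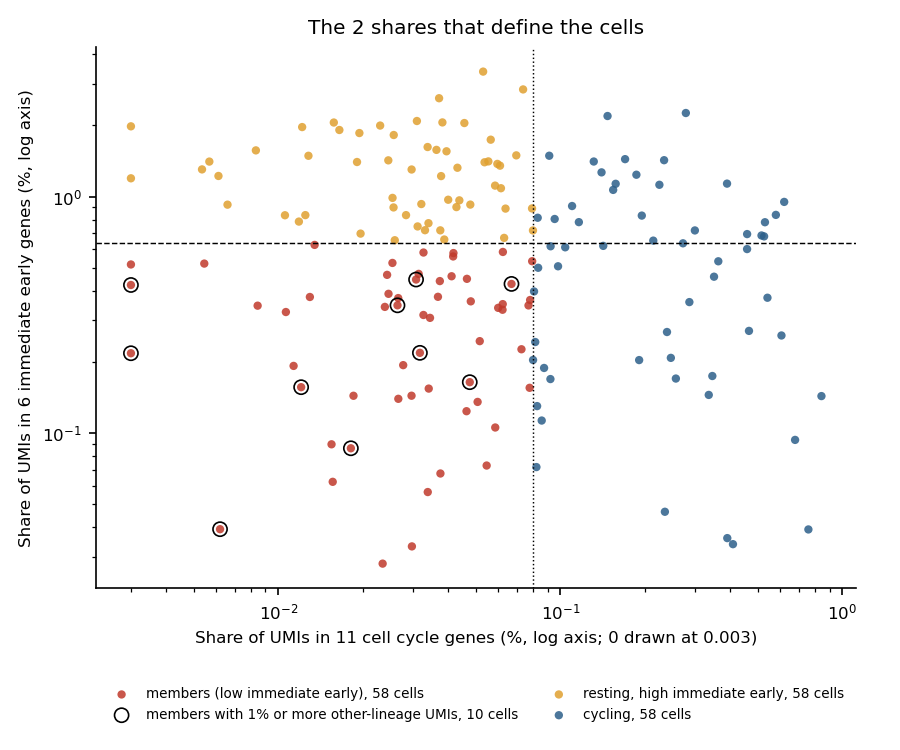
Each point is 1 cell, by the share of its UMIs in the 11 cell cycle genes (horizontal, log axis) and in the 6 immediate early genes (vertical, log axis). The dashed line is the pooled median of the resting cells at 0.639% and the dotted line the cell cycle limit; the 58 members fill the lower left, and rings mark the 10 members with 1% or more of UMIs in genes of other blood lineages.

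The values that chose the members formed a continuum. The split lay at 0.639% of UMIs, with the highest member at 0.625% and the lowest high cell at 0.654%, and 9 members and 10 high cells lay within 25% of it. The median share of the 6 genes in members was 0.307% and 0.218% in Mat KO versus 0.461% and 0.365% in WT, against 1.41% and 1.39% in Mat KO versus 1.08% and 1.22% in WT in high cells. At the cell cycle limit the highest resting cell had 0.0799% and the lowest cycling cell 0.0800%, with 18 resting and 14 cycling cells within 25% of it, and 3 members had no UMI of the 11 genes. Members were not devoid of immediate early transcripts. Fos, an AP-1 subunit, stood at 589.6 and 1037 CPM in Mat KO versus 2314 and 1134 in WT, against 4655 to 7479 in high cells. Jun, its partner, stood at 479.6 and 325 CPM in Mat KO versus 607 and 1020.5 in WT against 2411 to 4235. Junb, another AP-1 gene, was not lower in WT replicate 2, with 318 to 603 CPM in members and 552 to 1315 in high cells.

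The members were of 2 kinds. Of the 58, 48 had less than 1% of their UMIs in the lists of granulocyte and monocyte, erythroid, and T and NK genes. Of these 48, 46 had UMIs of at least 3 of 12 long-term HSC markers (a median of 7 of the 12, as in high cells). The other 10 cells, 4 and 3 from Mat KO replicates 1 and 2, with 1 and 2 more from the WT pair, had 1.42% to 38.8% of UMIs in those lists. In 9 of them these were mostly in the granulocyte and monocyte list. None of the 58 high cells reached 1%, and 11 of the cycling cells did. The 10 cells held 43.3% and 19.1% of the member UMIs in the Mat KO pair, in the same order, and 9.13% and 25.2% in the WT pair. They had a median of 3.5 of the 12 HSC markers, and 6 of them had at least 3. The marker check therefore bears out the HSC label for most of the 48 cells and not for all of the 10. The list of multipotent progenitor genes took more of the summed UMIs in members, at 0.252% and 0.223% in Mat KO versus 0.162% and 0.182% in WT. In high cells it took 0.0942% and 0.0873% in Mat KO versus 0.130% and 0.110% in WT. Without the 10 cells, 1 of its 9 genes compared was higher in members of all 4 libraries and 0 lower (list median 0.14 on the log2(CPM + 10) scale). How far the members are progenitors was not tested. The main results are given with and without the 10 cells.

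Some defining markers of other lineages had few or 0 UMIs, counted over all 58 members with the 10 cells included. Haemoglobin genes (Hba-a1, Hbb-bt and Hbb-bs) had 0 UMIs in members of all 4 libraries. So did the basophil and mast cell genes Mcpt8 and Prss34 and the stromal and endothelial genes Col1a1 and Cdh5. The whole lists were not at 0. Erythroid genes had 324 and 688 UMIs in Mat KO versus 560 and 121 in WT. Mast cell and basophil genes had 42 and 106 in Mat KO versus 13 and 59 in WT. Stromal and endothelial genes had 57 and 70 in Mat KO versus 45 and 22 in WT. The T cell genes Cd3d, Cd3e and Cd3g had 15 UMIs in Mat KO replicate 1 and 0 in the other libraries. Platelet chemokines Pf4 and Ppbp, which long-term HSC with a megakaryocyte bias also transcribe, had 7, 54, 84 and 23 UMIs in Mat KO 1, Mat KO 2, WT 1 and WT 2. In the same order, the megakaryocyte genes Itga2b, Gp9 and Gp1bb had 12, 112, 90 and 5.

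**Figure D2:**
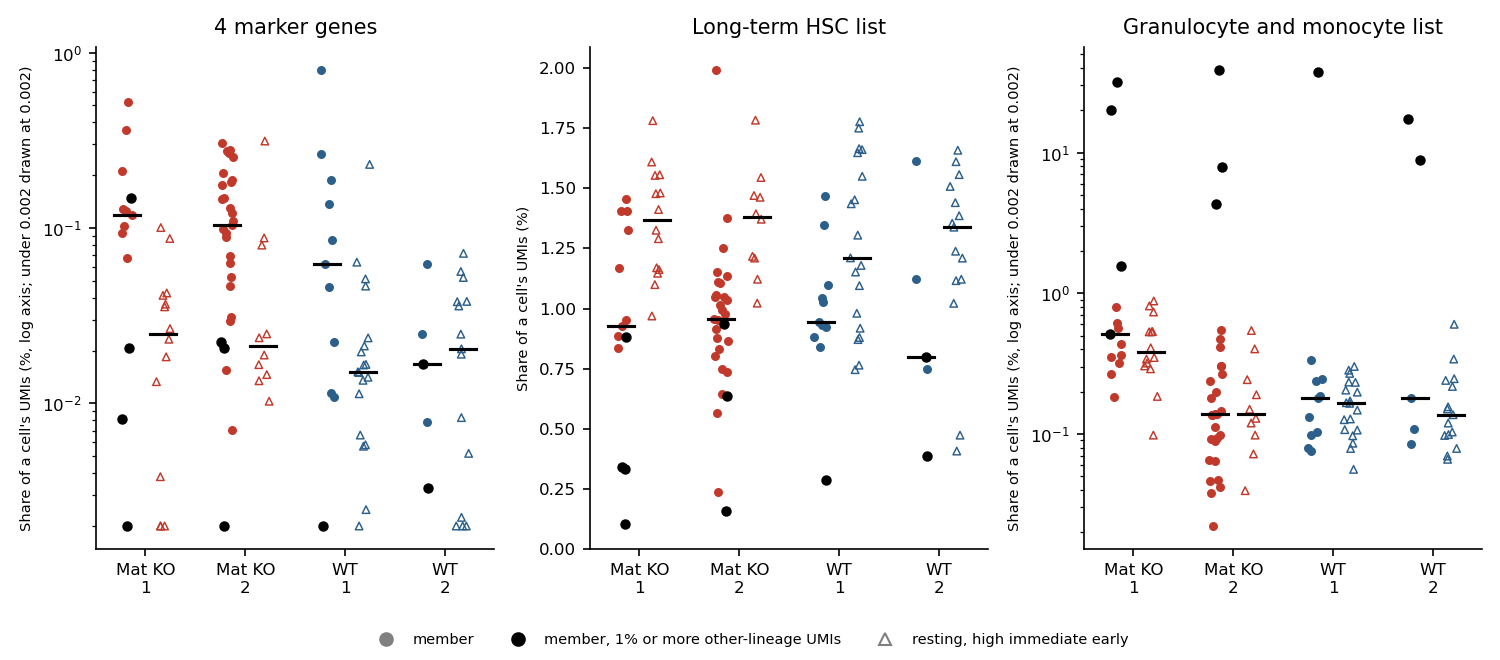
Share of each cell's UMIs (vertical axis, percent) in the 4 marker genes (log axis), the long-term HSC list (linear axis) and the granulocyte and monocyte list (log axis), for members (circles) and high cells (triangles) of each library, red for Mat KO and blue for WT; bars are medians and black circles are the 10 members with 1% or more other-lineage UMIs. The marker median of members exceeds that of high cells in 3 of 4 libraries and not in WT 2, and the HSC median is lower in members in all 4.

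Pmepa1, Map9, Dyrk3 and Epc2 had been put forward as markers of these cells. Pmepa1 (chromosome 2, 173224458 to 173276533, reverse strand, mm10) encodes a membrane protein that dampens TGF-beta signalling. Map9 (chromosome 3, 82358044 to 82395268, forward strand) encodes a microtubule-associated protein. Dyrk3 (chromosome 1, 131127455 to 131138340, reverse strand) encodes a kinase that dissolves stress granules and other condensates. Epc2 (chromosome 2, 49451486 to 49551948, forward strand) encodes a homologue of the NuA4 acetyltransferase subunit EPC1. All are protein-coding in GENCODE M21. Together they took a median 0.119% and 0.104% in Mat KO versus 0.0625% and 0.0168% in WT of a member's UMIs, against 0.025% and 0.0213% in Mat KO versus 0.0151% and 0.0205% in WT in high cells. WT replicate 2 therefore ran against the other 3 libraries. In cycling cells the median was 0.0377% and 0.225% in Mat KO versus 0.0223% and 0.0287% in WT, so in Mat KO replicate 2 the cycling cells held more of these transcripts than the members did. Only 2 members and 6 high cells had no UMI of any of the 4 genes.

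Map9 was the most abundant of the 4, at 831 and 698 CPM in Mat KO versus 581 and 197 in WT in the summed members, against 113 to 301 in high cells. Pmepa1 had 112 and 152 CPM in Mat KO versus 29.3 and 0 in WT, and the 0 in WT replicate 2 allows up to 17.9 CPM. Dyrk3 had 136 and 119 CPM in Mat KO versus 42.2 and 11.9 in WT. Epc2 had 131 and 186 in Mat KO versus 62.3 and 107 in WT. With the 10 cells left out, Map9 and Epc2 were higher in members than in high cells of all 4 libraries, whereas Pmepa1 and Dyrk3 were lower in WT replicate 2 and Dyrk3 also in Mat KO replicate 2. With cells thinned to 8800 UMIs and shallower cells left out, 81% of 42 members outside the 10 and 46.3% of 54 high cells had a Map9 UMI. For Epc2 the shares were 47.6% and 24.1%. Without thinning, in all 48 and all 58 cells, they were 89.6% and 72.4% for Map9, and 62.5% and 37.9% for Epc2. All these shares pool cells over libraries that hold members and high cells in unequal numbers. Library by library, the thinned Map9 share was higher in members of each. The thinned Epc2 share ran the other way in WT replicate 1, at 22.2% of members and 31.6% of high cells. Of the 34 Epc2 UMIs in members of that library, 30 came from 1 cell.

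Genes outside the rule were ranked by their difference between members and high cells, with and without the 10 cells. Differences between the classes are on the log2(CPM + 10) scale, as the median over the 4 libraries. Of 4231 genes with at least 200 UMIs over both classes and UMIs in at least 20 cells, 305 (7.21%) were higher in members in all 4 libraries and 362 (8.56%) were lower. The neutrophil genes S100a9, Lcn2, Retnlg and S100a8 were among the leading higher ones, with differences of 5.01, 4.73, 4.37 and 4.16. Of the list they belong to, 12 of 17 eligible granulocyte and monocyte genes were higher in all 4. Without the 10 cells, 264 of 3916 genes (6.74%) were higher and 288 (7.35%) lower. Then 0 of 9 eligible granulocyte and monocyte genes were higher in all 4, with a list median of -0.19 against -0.03 over all genes. The genes named next are from the 10 largest differences in each direction and were not tested. Cdkn1a, at rank 15 of the higher genes, and Foxo1, at rank 14 of the lower ones, are exceptions. Both are quiescence genes named after their values were seen.

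In the 48 members without those cells, the gene with the largest median difference was Bcl2l11 (2.02), which encodes the pro-apoptotic BH3 protein Bim. It had 177 and 196 CPM in Mat KO versus 204 and 7.98 in WT in members against 17.5 and 35.2 in Mat KO versus 49 and 6.32 in WT in high cells. It was high in 3 libraries and at 1 UMI in WT replicate 2. Atf3, a stress-induced factor of the ATF family, had 508 and 238 CPM in Mat KO versus 224 and 87.7 in WT against 35 and 62.6 in Mat KO versus 75 and 48.5 in WT (1.62). For Atf3 all 4 member values lay above all 4 high-cell values. Cdkn1a, the cyclin-dependent kinase inhibitor p21, had 1287 and 1150.1 CPM in Mat KO versus 646 and 319 in WT against 221 and 391 in Mat KO versus 233 and 249.7 in WT (1.48). Although members were the higher class in every library, WT replicate 2 members lay under the high cells of Mat KO replicate 2. The transcription elongation factor gene Rtf1 (1.81), the signalling adaptor gene Bcl10 (1.70), the splicing factor gene Snrpa (1.59), Isg20l2 (1.83), Gmeb1 (1.73) and Rars2 (1.61) were the other leading genes outside the 4 markers.

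Leading genes lower in the 48 members were sparser. The unnamed gene 2810013P06Rik had 8.25 and 14.9 CPM in Mat KO versus 20.2 and 7.98 in WT in members against 446 and 43 in Mat KO versus 181 and 280.3 in WT in high cells (-3.34). Id2, an inhibitor of basic helix-loop-helix factors and a target of BMP and TGF-beta signals, had 4.13 and 52.2 CPM in Mat KO versus 2.02 and 0 in WT against 92.8 and 137 in Mat KO versus 43.3 and 34.8 in WT (-2.16). The classes overlapped only through Mat KO replicate 2. Foxo1, one of the FoxO factors, had 0 and 36 CPM in Mat KO versus 12.1 and 7.98 in WT against 21 and 50.9 in Mat KO versus 76 and 89.6 in WT (-1.80). Several of these member values are at or under the 3-UMI level. Gmpr2 (-2.49), Top3b (-2.01), Cenpb (-2.01), 2210016L21Rik (-1.96), Sirt7 (-1.95), Stard10 (-1.88) and Cox16 (-1.87) followed.

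**Figure D3:**
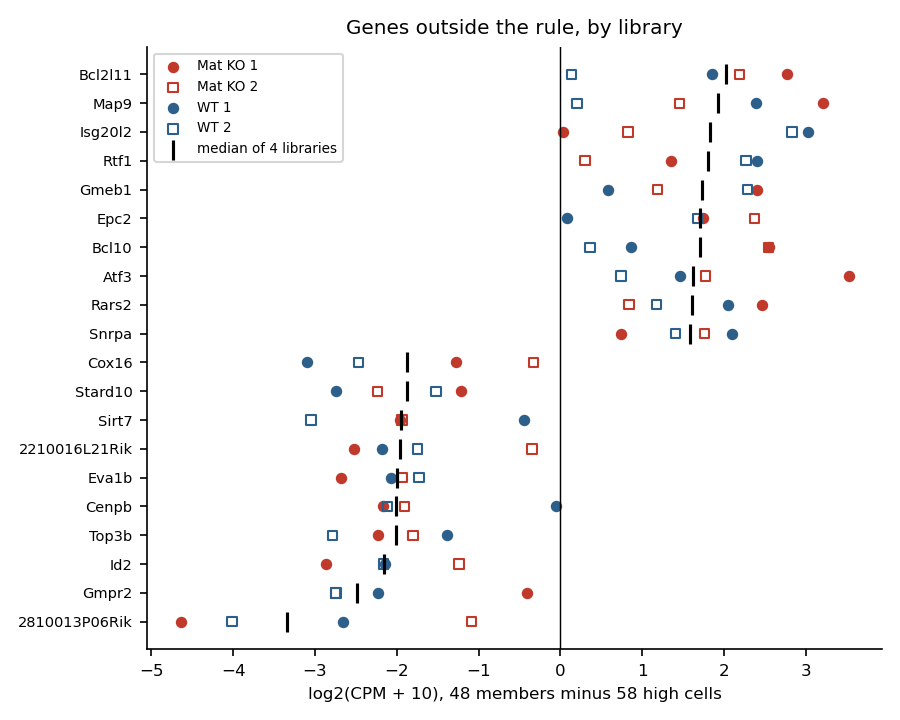
Difference between the 48 members with less than 1% of UMIs in other-lineage lists and the 58 high cells, on the log2(CPM + 10) scale (horizontal axis). Shown are the 10 genes outside the rule with the largest median difference in each direction. Each point is 1 library and the bar the median of 4. Points of a gene lie on 1 side of 0 because the genes were chosen that way, while Epc2 in WT 1 and Isg20l2 in Mat KO 1 lie close to 0, as does Cenpb in WT 1.

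The other immediate early genes did not move as a block. Of 44 listed genes outside the rule, 35 could be compared. With all 58 members 6 were lower in all 4 libraries and 2 higher (list median -0.22). In the 48 members 7 were lower and 3 higher (list median -0.16), against 7.35% and 6.74% of all genes compared. Zfp36, which destabilises messenger RNAs, went with the rule genes, at 458 and 236 CPM in Mat KO versus 476 and 367 in WT against 1287 and 1143 in Mat KO versus 1217 and 793 in WT (-1.40). So did Ppp1r15a, a phosphatase subunit of the stress response (-1.43), Nfkbiz (-1.63), Klf2 (-1.33), Dusp2 (-1.05), Gadd45b (-0.97) and Jund (-0.50). Fosb, another AP-1 subunit, was at 3334 and 2495 CPM in Mat KO versus 2008 and 1938 in WT against 2878 and 2747 in Mat KO versus 1618 and 1221 in WT. The nuclear receptor gene Nr4a1 was at 2265 and 1989.7 in Mat KO versus 2312 and 3908 in WT against 1831 and 2610.4 in Mat KO versus 2185 and 1949 in WT. Both overlapped. Nr4a3 (0.94) and Ier3 (0.27), with Atf3, were higher in members in all 4 libraries. Across the 48 members the share of the 44 genes and that of the 6 rule genes had a Spearman coefficient of 0.58, over cells that share libraries.

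Long-term HSC genes were lower in members. The 55-gene list took a median 0.928% and 0.958% in Mat KO versus 0.942% and 0.8% in WT of a cell's UMIs, against 1.37% and 1.38% in Mat KO versus 1.21% and 1.34% in WT in high cells. Without the 10 cells it was 1.17% and 0.987% in Mat KO versus 0.985% and 1.12% in WT. The classes did not overlap across libraries in either form. Of 36 genes compared with all 58 members, 9 were lower in all 4 libraries and 0 higher (list median -0.70). In the 48 members 9 were lower and 3 higher (list median -0.44), against 7.35% and 6.74% of all genes compared. Among the lower ones were Ly6a (Sca-1, -1.44), Pdzk1ip1 (-1.28), Lyl1 (-1.08), Ifitm3 (-1.03), Adgrg1 (GPR56, -0.59), Ifitm1 (-0.46), Eng (-0.40) and Lmo2 (-0.16). Ly6a stood at 41.3 and 84.5 CPM in Mat KO versus 70.6 and 16 in WT in the 48 members against 109 and 97.8 in Mat KO versus 248 and 246 in WT in high cells. The transcription factor genes Erg (0.58), Runx1 (0.47) and Tal1 (0.33) were higher in all 4. Hlf, a transcription factor of self-renewing HSC, had 912 and 514 CPM in Mat KO versus 684 and 455 in WT against 823 and 853 in Mat KO versus 844 and 684 in WT. Procr, the protein C receptor gene, had 119.7 and 68.3 CPM in Mat KO versus 127 and 63.8 in WT against 166 and 50.9 in Mat KO versus 190.4 and 148 in WT. Mecom had 136 and 303 CPM in Mat KO versus 40.4 and 55.8 in WT against 84 and 157 in Mat KO versus 25 and 229 in WT. All 3 overlapped.

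Of all genes compared in the 48 members, 6.74% were higher than in high cells in all 4 libraries and 7.35% lower. The list counts that follow are to be read beside these shares. Of 18 quiescence genes compared in the 48 members, Cdkn1a and Stk11, which encodes the kinase LKB1 (1.37), were higher in all 4 libraries. Foxo1, Txnip (-1.69), Btg1 (-1.68) and Tsc22d3 (-0.31) were lower (list median -0.15). Among 18 TGF-beta genes, the SMAD co-repressors Ski (1.22) and Skil (0.95) and the inhibitory Smad7 (0.68) were higher in all 4. Id2, Id3 (-0.60) and Eng were lower (list median -0.52). Against cycling cells, the listed S phase and G2/M genes outside the rule had median differences of -1.39 and -1.61 in the 48 members (-1.44 and -1.63 in all 58). Against high cells they stood at -0.04 and 0.11. Of 16 snoRNP genes compared, the pseudouridine synthase Dkc1 (1.23), Nolc1 (0.61) and the box C/D core protein gene Nop58 (0.46) were higher in all 4 libraries and Pih1d1 (-0.48) lower. With all 58 members only Pih1d1 kept 1 direction. Of 47 ribosome biogenesis genes, 8 were higher and 1 lower, among them Wdr3 (1.40), Ddx21 (0.80) and Npm1 (0.35). With all 58 members these counts were 3 and 2 of 49.

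Members made up more of the resting cells in Mat KO than in WT libraries, by a margin that 2 libraries each cannot test. Members were 48.1% and 74.4% of resting cells in Mat KO replicates 1 and 2 (exact binomial 95% intervals 28.7% to 68.1% and 57.9% to 87.0%). In WT replicates 1 and 2 they were 36.7% and 25.0% (19.9% to 56.1% and 8.66% to 49.1%). The intervals cover counting error only. The shares follow from the values the rule used, and the limits were set over all libraries together. The mean difference was 30.4 percentage points and both Mat KO shares lay above both WT shares. No p-value is given for this difference, because the rule's own values set the shares and 2 libraries against 2 are too few. Without the cells at 1% or more of other-lineage UMIs the shares were 39.1% and 72.2% against 34.5% and 16.7%, a difference of 30.1 points. As a share of all kept cells, members were 29.5% and 60.4% against 22.9% and 10.4%. The mean difference kept its direction under the other settings tried. In resting cells it was 16.2 points with the lowest 60% taken as members, and it ranged from 17.3 without Mat KO replicate 2 to 43.5 without Mat KO replicate 1. Cycling cells were 27.3% and 12.5% of kept cells in Mat KO versus 27.1% and 56.3% in WT, which overlap.

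**Figure D4:**
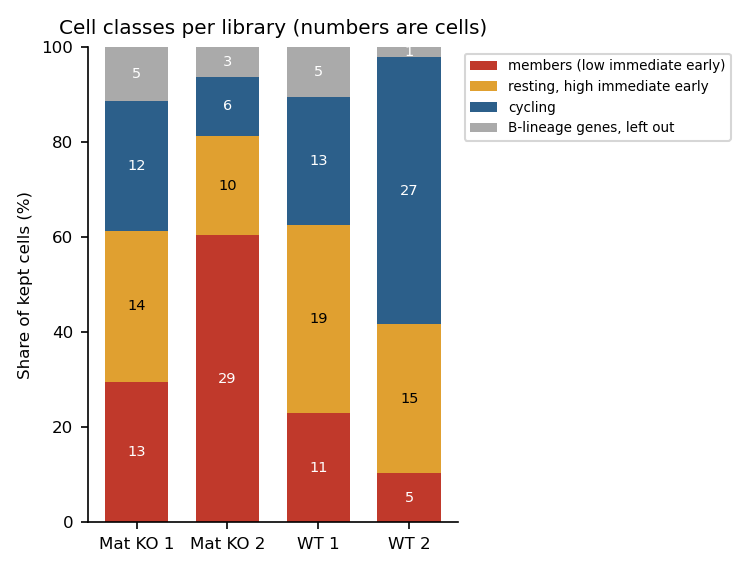
Share of kept cells (vertical axis, percent) in each class for the 4 libraries, with the number of cells printed in each segment. Members make up 29.5% and 60.4% of the Mat KO libraries and 22.9% and 10.4% of the WT libraries.

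Within members, which genes differed between the genotypes was tested on the summed UMIs of each library by edgeR (quasi-likelihood F test). P-values were adjusted by the Benjamini-Hochberg method over 6398 genes. A total of 2 genes (0.0313%) were higher in Mat KO, 0 (0.0%) were lower, and 318 (4.97%) had an unadjusted p under 0.05. Without regard to p, 49.7% of the 6398 genes had a higher value in Mat KO and 50.3% a lower one. DESeq2 called 10 higher and 8 lower. In CPM, the Mat KO libraries were both above or both below the WT libraries for 2255 of the 6398 genes (35.2%), so genotypes that do not overlap in a single gene were common. The labels do not say that the libraries are from separate animals, so these p-values measure only the spread between libraries, which may be technical. Both genes that passed are induced by interferon. Cxcl10 (chromosome 5, 92346638 to 92348889, reverse strand, mm10), a chemokine gene, had 230 and 367 UMIs in Mat KO versus 0 and 0 in WT, or 538 and 369 CPM in Mat KO versus 0 and 0 in WT. Set against the 3 UMIs that a count of 0 over the WT members allows, its level was at least 99.7-fold higher in Mat KO (adjusted p = 0.0314 by edgeR, n = 2 libraries each). Ifit1 (chromosome 19, 34640871 to 34650009, forward strand), an antiviral RNA-binding protein gene, had 146 and 361 UMIs in Mat KO versus 0 and 0 in WT and was at least 84.7-fold higher (adjusted p = 0.0314 by edgeR). Single cells carried both differences. A single cell of Mat KO replicate 1 held 227 of the 230 Cxcl10 UMIs and another held 89 of the 146 of Ifit1, both among the 10 cells with other-lineage transcripts. Another cell, of Mat KO replicate 2 and not among those 10, held 346 of 367 and 348 of 361. With each gene's leading cell of every library left out, no gene of 3677 tested passed (140 higher and 75 lower at an unadjusted p under 0.05), and neither did Cxcl10 or Ifit1 without the 10 cells, where Cxcl10 did not pass the filter on low counts and Ifit1 had an adjusted p of 0.303 by edgeR. Over the alternatives that gave a value, the adjusted p ran from 1.43e-14 to 0.821 for Cxcl10 and from 1.17e-11 to 0.821 for Ifit1.

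Most other interferon-induced genes had higher values in Mat KO members, though few passed a test. Of 40 tested genes, 33 were higher in value in Mat KO members and 7 lower, 2 passed edgeR's test, and 13 had an unadjusted p under 0.05 (list median log2 fold change 1.07 against -0.01 over all genes). Rsad2, the antiviral enzyme viperin, had 213 and 102 UMIs in Mat KO versus 1 and 0 in WT (edgeR log2 fold change 7.60 with SE 1.26, adjusted p = 0.163). DESeq2 called Rsad2, Ifit2 and Ifit3 besides Cxcl10 and Ifit1. The leading cells of Rsad2, with 182 and 75 of those UMIs, were the ones that led Ifit1. The share of a member's UMIs in the list had a median of 0.329% and 0.253% in Mat KO versus 0.292% and 0.262% in WT, and 3 Mat KO cells exceeded 1%, at 1.27%, 2.13% and 4.92%. Both Mat KO medians lay within the range of single WT members, 0.141% to 0.512%. Without the 10 cells, 16 of 28 tested interferon genes were higher and 12 lower (median 0.61, 0 passed edgeR's test, 4 had an unadjusted p under 0.05).

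The other genes of smallest p did not pass edgeR's test. DESeq2 called Ly6c2, Lyz1, Trem1, Maml2, Lins, Tnfrsf14 and Grina of those that follow. Ly6c2, an antigen of monocytes and granulocytes, had 436 and 1028 UMIs in Mat KO versus 62 and 7 in WT (log2 fold change 3.69, SE 0.55, edgeR adjusted p = 0.117). In Mat KO, 430 and 934 of them came from 1 cell each. The lysozyme gene Lyz1 had 122 and 175 UMIs in Mat KO versus 1 and 1 in WT (adjusted p = 0.163 by edgeR), 119 and 135 of them from 1 cell of each Mat KO library. The T and NK cell chemokine gene Ccl5 had 318 and 98 UMIs in Mat KO versus 0 and 0 in WT (adjusted p = 0.184 by edgeR), 313 and 92 of them from 1 cell of each Mat KO library. The granulocyte and monocyte list, 15 of 20 tested genes higher in Mat KO (median 1.27) against 49.7% of all tested genes, was spread unevenly. It held 8.11% and 1.30% of member UMIs in Mat KO versus 3.51% and 3.86% in WT. Among genes lower in Mat KO, Trem1, a myeloid receptor gene, had 3 and 12 UMIs in Mat KO versus 56 and 73 in WT (adjusted p = 0.394 by edgeR). The Notch co-activator gene Maml2 had 1 and 4 UMIs in Mat KO versus 29 and 43 in WT (adjusted p = 0.75 by edgeR). Lins had 1 and 0 UMIs in Mat KO versus 36 and 38 in WT and Tnfrsf14 0 and 0 in Mat KO versus 39 and 13 in WT. For each of these genes the leading cell held 65.5% or more of the UMIs of either WT library. Grina had 15 and 32 UMIs in Mat KO versus 38 and 145 in WT, 112 of them in 1 cell of WT replicate 2. Atp5e, a subunit of ATP synthase, was found in more cells, with UMIs in 11 and 29 members of the Mat KO pair and in 11 and 5 of WT, and 16.6% to 54.5% of a library's UMIs in the leading cell. It had 428 and 582 CPM in Mat KO versus 1476 and 1313 in WT (edgeR log2 fold change -1.44 with SE 0.38, adjusted p = 0.901), and the genotypes did not overlap.

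The 4 marker genes each had a higher value in Mat KO members and none passed. Pmepa1 had a log2 fold change of 2.94 (SE 1.16, edgeR adjusted p = 0.914), Dyrk3 of 2.16 (SE 0.93), Map9 of 0.99 (SE 0.53) and Epc2 of 0.96 (SE 0.69). For all 4 genes both Mat KO libraries lay above both WT libraries. Of all tested genes, 35.2% had the Mat KO libraries both above or both below the WT libraries. Of 21 tested TGF-beta genes, 16 were higher (76.2%, against 49.7% of all tested genes) and 5 lower (median 0.65). Without the 10 cells 14 of 20 were higher (median 0.70), and 0 passed edgeR's test in either form. The TGF-beta list is not separate from the 4 markers: without the 10 cells the largest log2 fold change in both was 3.11. The list median depended on the settings, from 0.0016 with a larger cycling class to 1.11 with cells thinned. Ski had 421 and 313 CPM in Mat KO versus 95.3 and 197 in WT (log2 fold change 1.39, SE 0.57). Skil, the most abundant, had 756 and 972 CPM in Mat KO versus 517 and 609 in WT (log2 fold change 0.65, SE 0.39). Neither gene overlapped between genotypes. Smad7, at 407 and 348 CPM in Mat KO versus 447 and 310.3 in WT, overlapped. Nrros, Bmpr2, Eng and Id1 had log2 fold changes of -0.63 to 0.92. Id2 had 16 and 93 UMIs in Mat KO versus 1 and 0 in WT, 110 in all. Without the 10 cells 44 were left, at 4.13 and 52.2 CPM in Mat KO versus 2.02 and 0 in WT. The median share of the list per member, 0.336% and 0.301% in Mat KO versus 0.202% and 0.172% in WT, was higher in both Mat KO libraries. The same order held in high cells at 0.302% and 0.237% in Mat KO versus 0.172% and 0.152% in WT, which come from the same libraries.

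Long-term HSC genes gave no call between Mat KO and WT members, where 50.3% of all tested genes were lower in value. Of 44 tested, with log2 fold changes from -2.87 to 1.93, 18 were higher in value and 26 lower and 0 passed edgeR's test (2 had an unadjusted p under 0.05) (median -0.32; -0.17 without the 10 cells). The 8 with most UMIs were Ifitm1, Ifitm3, Angpt1, Adgrg1, Myct1, Ly6e, Lmo2 and Hlf, with log2 fold changes from -0.80 for Ifitm1 to 0.55 for Myct1. Hlf had 545 and 455 CPM in Mat KO versus 623 and 340.2 in WT (log2 fold change 0.08, SE 0.46), which overlap. The genes of smallest p were Mecom, an HSC transcription factor, at 81.9 and 246 CPM in Mat KO versus 40.3 and 47.7 in WT (log2 fold change 1.93, SE 0.82, edgeR adjusted p = 0.974), Ifitm1, and the adhesion molecule gene Alcam at 32.8 and 40.2 CPM in Mat KO versus 149 and 113 in WT (log2 fold change -1.81, SE 0.83). Quiescence genes were even, 11 of 21 higher (median 0.04), where 49.7% of all tested genes were higher. Cdkn1a had 779 and 1145 CPM in Mat KO versus 589 and 286 in WT (edgeR log2 fold change 1.15 with SE 0.46, adjusted p = 0.92) and did not overlap. Stk11 had 70.2 and 62.3 CPM in Mat KO versus 205 and 167 in WT and Lin54 25 and 24 UMIs in Mat KO versus 0 and 0 in WT. Among the other abundant quiescence genes, Ccnd2, Tsc22d3, Foxp1, Txnip, Tob2 and Btg1 had log2 fold changes of -0.46 to 0.68.

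Genes of the snoRNP and ribosome lists, which bear on the study's title, had more members lower than higher in Mat KO, and none passed. Of all tested genes, 50.3% were lower. snoRNPs are the particles in which snoRNAs guide methylation and pseudouridylation of ribosomal RNA. Of 20 tested snoRNP genes, 5 were higher and 15 lower (median -0.49; -0.31 without the 10 cells, 6 and 11 of 17). Fbl, the methyltransferase fibrillarin, had 72.5 and 134 CPM in Mat KO versus 345 and 107 in WT (log2 fold change -1.12, SE 0.70, edgeR adjusted p = 0.999). Dkc1, the pseudouridine synthase, had 95.9 and 72.4 CPM in Mat KO versus 255 and 149 in WT (log2 fold change -1.24, SE 0.64). The genotypes overlapped for Fbl and not for Dkc1. The core proteins Nop58 at 395 and 445 CPM in Mat KO versus 466 and 322 in WT and Nop56 at 197 and 215 in Mat KO versus 202 and 113 in WT differed by less than their SE, with log2 fold changes of 0.12 (SE 0.45) and 0.40 (SE 0.58). Nop10, Nhp2l1, Nolc1 and the chaperone gene Hsp90ab1 ranged from -0.57 to -0.01, and Ftsj3 and Rpap3 had -1.77 and 2.39. Cytosolic ribosomal protein genes were 69 of 75 lower, by little (median -0.20; 61 of 75 and -0.14 without the 10 cells). In high cells 69 of 75 were lower as well (median -0.19). Their median share per member was 18.4% and 19% in Mat KO versus 20.6% and 19.2% in WT.

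Energy and protein turnover genes were also more often lower than higher in value, where 50.3% of all tested genes were lower. Of 81 oxidative phosphorylation genes, 55 were lower in Mat KO members and 26 higher (median -0.40), and without the 10 cells 63 of 79 were lower (median -0.71). High cells had 57 of 85 lower (median -0.27). Besides Atp5e, the smallest p belonged to complex I genes. Ndufb4 had 11.7 and 62.3 CPM in Mat KO versus 231 and 143 in WT and Ndufab1 37.4 and 15.1 in Mat KO versus 260.3 and 47.7 in WT. Mitochondrial ribosomal protein genes had a median of -0.31 (38 of 63 lower) and proteasome genes of -0.26 (29 of 45 lower). Heat shock genes had a median of -0.47, with 12 of 22 lower (54.5%), near the share over all genes. Hsp90aa1, a chaperone gene that flanks the imprinted locus, had 936 and 1173 CPM in Mat KO versus 1613 and 3205 in WT (edgeR log2 fold change -1.16 with SE 0.39, adjusted p = 0.901). None of these genes passed. The libraries also differ in depth per member, with medians of 31899 and 23651 UMIs in Mat KO versus 49793 and 30252 in WT, and its part in these list medians was not tested.

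Other lists gave no gene past the test in members, where 49.7% of all tested genes were higher and 50.3% lower. Other immediate early genes were even at 18 higher and 18 lower of 36 (median 0.02). Fosb had 2092 and 2140.4 CPM in Mat KO versus 1837 and 1534 in WT and Nr4a1 1514 and 1742 in Mat KO versus 2119 and 3067 in WT. Rgs2, Nr4a2, Klf6, Mcl1, Jund and Btg2 lay within log2 fold changes of -0.82 to 0.45. The smallest p in that list belonged to Zfp36l1, which encodes an RNA decay factor, at 213 and 159 CPM in Mat KO versus 14.7 and 23.9 in WT (log2 fold change 3.36, SE 0.82, edgeR adjusted p = 0.901). Ribosome biogenesis genes had a median of -0.18 (40 of 69 lower), translation factors -0.17 (33 of 51 lower), PI3K and mTOR genes 0.04 (18 of 34 higher). Glycolysis genes had -0.11 (13 of 19 lower), p53 targets -0.75 (8 of 12 lower), the unfolded protein response 0.18 (11 of 17 higher) and megakaryocyte genes -0.78 (7 of 8 lower). Multipotent progenitor genes had 0.29 (10 of 13 higher), and 0.21 without the 10 cells (7 of 11 higher). Genes of the NuA4 complex and related chromatin factors, the list of Epc2, had a median of 0.15 (7 of 14 higher). Ing3 had 81.9 and 134 CPM in Mat KO versus 9.17 and 11.9 in WT and Brd8 32.8 and 109.5 in Mat KO versus 282 and 191 in WT.

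Rn45s, the precursor of the 18S, 5.8S and 28S ribosomal RNAs, was chosen after its values were seen. It is a multi-copy transcript, and the sources used here do not say how its reads were assigned. It took 7.98% and 9.09% in Mat KO versus 4.83% and 6% in WT of the summed member UMIs, so both Mat KO libraries lay above both WT libraries. The log2 fold change of 0.69 (SE 0.16) did not pass over all genes (edgeR adjusted p = 0.75). Without the 10 cells it was 1.03 (SE 0.07, adjusted p = 9.04e-08 by edgeR). It was the 1 gene of 5570 (0.018%) that passed there, where 312 (5.6%) had an unadjusted p under 0.05. In high cells the log2 fold change was 0.84 (adjusted p = 0.00729 by edgeR). The departure of the genotype difference in members from that in high cells did not pass the interaction test (adjusted p = 1 by edgeR), nor was it without the 10 cells (adjusted p = 0.182 by edgeR). Over the alternatives its log2 fold change stayed positive, and 13 of 23 passed the test while 10 did not.

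Per cell, the median Rn45s share was 8.95% and 10.5% in Mat KO members and 5.63% and 7.81% in WT, with single cells from 3.50% to 21.1% in Mat KO against 2.58% to 14.4% in WT. The cells of the genotypes overlapped widely. The share was higher in cells with fewer UMIs (Spearman coefficient -0.644 over the 58 members, which share 4 libraries). Median depth per member was 31899 and 23651 UMIs in Mat KO versus 49793 and 30252 in WT, which overlap. The part of depth in the Rn45s difference was not tested. With cells thinned to 8800 UMIs the log2 fold change was 0.49 (adjusted p = 0.948 by edgeR). Relative to the spike-in RNA, members held a median of 55.8 and 77.3 Rn45s UMIs per 1000 spike-in UMIs in Mat KO versus 48.3 and 39.9 in WT. All other UMIs per 1000 spike-in UMIs were 546.5 and 628.3 against 811.1 and 439.2, which overlap.

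**Figure D5:**
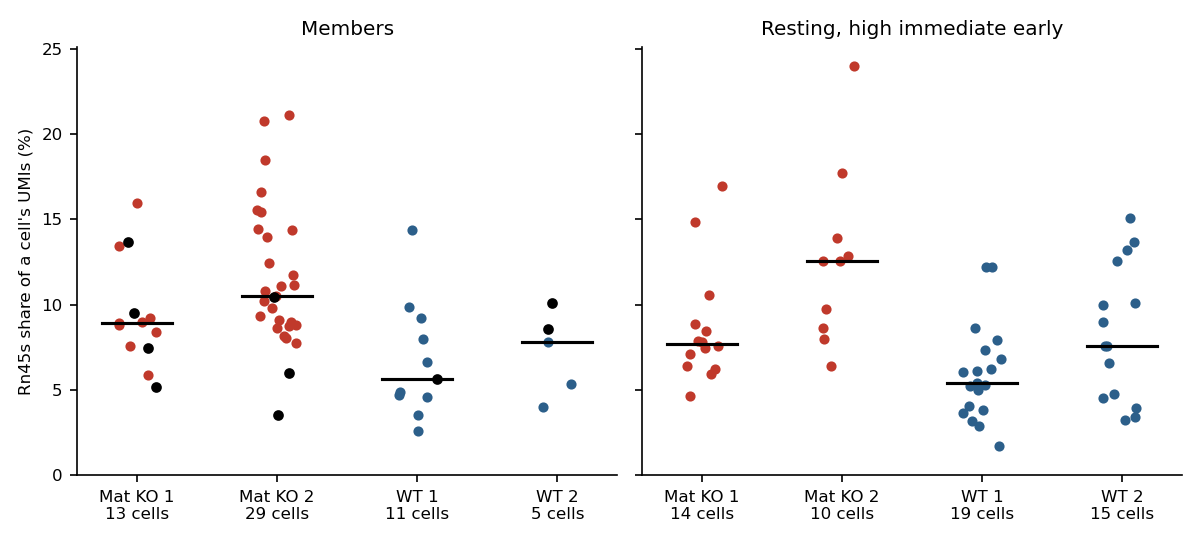
Rn45s share of each cell's UMIs (vertical axis, percent) in members (left) and high cells (right) of the 4 libraries, red for Mat KO and blue for WT, with black points for the 10 members with 1% or more other-lineage UMIs and bars for medians. The member medians are 8.95% and 10.5% in Mat KO versus 5.63% and 7.81% in WT, and the cells of the genotypes overlap.

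Whether the genotype difference in members departed from that in high cells was tested with an interaction term over 8615 genes, with the library as a block. Outside the rule, 10 genes (0.116%) passed edgeR's test (DESeq2 called 1 in each direction), 6 with a higher and 4 with a lower Mat KO difference in members. The 2 rule genes Fos and Jun, whose levels the split fixes, also passed and are not counted. The 10 were myeloid genes (S100a8, S100a9, Retnlg, Lyz2, Ly6c2 and Slpi), interferon-induced genes (Ifit1, Rsad2 and Cxcl10) and Lins. Lyz2, the macrophage lysozyme gene, had 6135 and 5222 CPM in Mat KO versus 2063 and 406 in WT in members and 418 and 395 in Mat KO versus 309.6 and 296 in WT in high cells. In members, 2453, 3664 and 1047 of its UMIs in Mat KO 1, Mat KO 2 and WT 1 came from 1 member each. S100a8 had 22781 and 1812 CPM in Mat KO versus 12570 and 22689 in WT in members, with 81.2% to 96.7% of the UMIs of a library in 1 cell. Without the 10 cells, 0 genes outside the rule passed, and 201 and 86 genes had an unadjusted p under 0.05 in the 2 directions.

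Transcripts of the imprinted locus were too sparse in members for a statement. Meg3 (chromosome 12, 109541001 to 109571726, forward strand, annotated as lincRNA, mm10), the maternal transcript, had 10 and 43 UMIs in Mat KO versus 41 and 1 in WT in 3, 6, 4 and 1 members in the order Mat KO 1, Mat KO 2, WT 1 and WT 2. This is 23.4 and 43.2 CPM in Mat KO versus 75.2 and 5.97 in WT (log2 fold change -0.32, SE 1.34, edgeR adjusted p = 0.999). Of the Meg3 UMIs, 35 of the 41 of WT replicate 1 came from 1 cell. Rian, which hosts snoRNAs, had 25 UMIs in 1 member of Mat KO replicate 2 and 0 elsewhere. The paternal gene Dlk1 had 9 and 3 UMIs in Mat KO versus 0 and 1 in WT, and Mirg, Rtl1 and Dio3 had 0 in all 4 libraries, which allows up to 3.02 to 17.9 CPM. The labels do not say which part was deleted and a 3' tag outside it checks nothing, so these counts do not check the genotype. Of the neighbouring genes, Ppp2r5c had 86.6 and 163 CPM in Mat KO versus 101 and 107 in WT and Wars 7.02 and 23.1 in Mat KO versus 27.5 and 29.8 in WT; the genotypes overlapped for Ppp2r5c and not for Wars, which had 46 UMIs in all.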

How the data were processed

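The authors deposited a table of whole-number UMI counts for each of 4 libraries, with genes and spike-in RNA against barcodes. HTSeq, TopHat2 (2.0.12) and mm10 appear, without roles, per the submitters' processing notes. The assignment of multi-copy reads is not stated there. The members and the gene lists were chosen with earlier results of these data known. Spike-in counts were kept out of library sizes. Doublets were not called or removed.

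Member UMIs were summed per library and tested with edgeR 4.0.16 (quasi-likelihood, TMM factors, filterByExpr, Benjamini-Hochberg adjusted p under 0.05) in R 4.3.3, which was tested on simulated data first. The interaction was fitted over the library sums of both classes with the library as a block. Alternatives used DESeq2 1.42.0 and limma 3.58.1. A list is described by its counts and median. Members and high cells were compared on log2(CPM + 10) without a test. The genes compared had at least 200 UMIs over both classes together and a UMI in at least 20 cells. Zeros allow up to 3 UMIs. Coordinates are from GENCODE M21.

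Genes named are those past the test or the 6 of smallest p in each direction, the 4 markers, the 24 rule genes, the 8 of most UMIs and 3 of smallest p in 5 lists, the 3 of smallest p in others, the interaction calls, the 10 of largest difference from high cells in each direction and the locus genes. List genes named beside high cells were chosen after their values were seen. A few genes that this rule names are not reported here.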

Additional observations from a re-analysis of the deposited data

Results flagged for a closer look

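The Mat KO difference was not the same in members and in resting cells with high immediate early genes for 10 genes outside the rule, by edgeR's interaction test (the values are the log2 fold change in members minus that in high cells). It was higher in members for Ifit1 (12.05), Cxcl10 (10.71), Rsad2 (8.49), Slpi (5.20), Ly6c2 (4.77) and Lyz2 (2.21), and lower for Lins (-14.19), Retnlg (-3.30), S100a8 (-3.02) and S100a9 (-2.66). None of the 10 passed without the 10 members that had 1% or more of their UMIs in other lineages. Fitted values of genes at 0 in a group depend on the prior count.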

How the results depend on the processing

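Direction held in the share results, whose differences ran from 21.7 to 31.5 points of kept cells (12.9 to 43.8 with 1 library left out) and from 16.2 to 30.9 of resting cells (17.3 to 43.5). Counts of genes higher in Mat KO, 2 as reported, moved to 25 with no filter on low counts, 10 with DESeq2 and 6 with the lowest 60% of resting cells. They came to 1 with a smaller cycling class, where the gene was Cxcl10. They also came to 1 each with at least 2000 genes per cell and without cells at 1% or 0.5% or more of other lineages. There the gene was Rn45s, and neither Cxcl10 nor Ifit1 passed. They came to 0 each with at least 10 UMIs in 3 libraries, cells thinned to 8800 UMIs each, leading cells left out, the lowest 40%, a larger cycling class and limma with each cell weighing the same. With 1 library left out they ran from 9 (Mat KO replicate 1) to 26 (WT replicate 1), and from 2 to 21 with the 10 cells also left out. Genes lower, 0 as reported, came to 14 with no filter, 8 with DESeq2, 5 to 42 with 1 library left out and 0 to 14 with the 10 cells also left out.

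Interaction calls, 6 higher and 4 lower, came to 0 and 2 with cells thinned, 0 and 0 without the 10 cells, and 1 and 1 with DESeq2; the lower ones came to 8 with the lowest and highest 40%. With 1 library left out they ran from 1 to 10 and from 2 to 9. Genes in 1 direction against high cells, 305 higher and 362 lower, ran from 464 to 605 and from 582 to 777, since 3 libraries are asked in place of 4. Apart from that construction, the cause was not tested. A lone library left in a genotype is assumed to vary like the other genotype's.

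List medians ran, over 24 alternatives, from 0.0016 to 1.11 for TGF-beta, 0.27 to 3.03 for interferon, -0.33 to 0.44 for long-term HSC, -0.18 to 1.04 for quiescence, -0.62 to 0.08 for snoRNP, -0.76 to -0.13 for oxidative phosphorylation, -0.35 to -0.03 for ribosomal protein and -0.32 to 2.72 for granulocyte and monocyte genes. The sums of thinned cells still differ with the number of cells per library.

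Replicate numbers were not taken to pair the libraries. The correlation of replicate 1 minus 2 differences between genotypes was -0.01, which cannot exclude a pairing in sums of so few cells. The fit with the replicate block called 9 genes higher and 2 lower, among them Ly6c2, Lyz1, Ccl5, Rsad2 and Trem1. With 5 members in WT replicate 2, a count of 0 there allows up to 17.9 CPM.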
